A study of Mus musculus with 3 samples.

Results

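The 43 genes described here encode subunits of SWI/SNF complexes, ISWI and CHD remodelers, polycomb proteins and the acetyltransferases p300, CBP, GCN5 and PCAF. They were taken by mouse symbol from a list drawn up by function, with earlier results of these data known. All 43 were found among the 22698 genes of the files. Their levels were measured by RNA-seq in mouse melan-a cells, an immortalized line of pigmented melanocytes, in 3 replicates labelled 1, 3 and 4. Per the labels the cells have a C57BL/6J background and come from Ink4a-ARF-/- mice, and the design text calls them bioreplicate lines without saying how they were kept apart, so their spread may be partly technical. They received no treatment and grew in medium with 10% serum, 200 nM of the phorbol ester TPA and 200 pM cholera toxin. With 1 condition, nothing could be compared between groups of samples, so genes were compared with each other within each library.

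The values are FPKM, reads per kilobase of gene and per 1000000 reads of the library, so the levels of different genes can be set side by side. The library sizes after the scaling by the authors were estimated at 54000000, 47000000 and 66300000 reads in replicates 1, 3 and 4. Of 9 melanocyte markers, 8 were at or above 1 FPKM in every replicate, and the exception was *Kit*, at 0.59 to 0.78 FPKM. The summed level of these markers was 5780 to 6620 FPKM, against 0.36 to 0.7 for 5 keratinocyte markers, 1.61 to 1.95 for 5 fibroblast markers, 0.01 to 0.03 for 3 endothelial markers and 0.76 to 1.6 for 4 immune markers. The neuronal list summed to 181 to 249 FPKM and the muscle list to 27.6 to 31.7. In these lists *Tubb3* (180.53 to 249.36 FPKM) and *Tnnt2* (27.4 to 31.58) accounted for nearly the whole sum, and the defining neuronal genes *Snap25* and *Syt1* were at 0 in every replicate. *Cdkn2a*, the Ink4a-ARF locus, had 19.24, 16.49 and 24.32 FPKM in replicates 1, 3 and 4. A value over a whole gene cannot show which exons are missing, so it does not check the label. In a bulk sample a lower level in some cells cannot be told apart from fewer cells that express the gene.

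SWI/SNF complexes use the energy of ATP to slide or evict nucleosomes. Each holds 1 ATPase, BRG1 (*Smarca4*) or BRM (*Smarca2*), and a set of subunits that are mostly encoded by families of paralogs, so that a cell can build different versions from the same plan. BRG1 is known in melanocytes as a cofactor of MITF. CHD and ISWI proteins are other families of remodeling ATPases. Polycomb complex PRC2 methylates lysine 27 of histone H3 and PRC1 ubiquitinates histone H2A, and both keep developmental genes silent. p300 and CBP acetylate histones at enhancers and promoters. Which paralog a cell transcribes is therefore the question that these levels can address.

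Of the 43 genes, 38 were at or above 1 FPKM in every replicate (88.4%, against 44.1% of all 22698 genes), and 21 were at or above 10 FPKM (48.8%, against 21.7%). The median of their mean levels was 11.4 FPKM, against 0.277 FPKM over all genes. Among genes at or above 1 FPKM in every replicate the medians were closer, at 13.7 FPKM for the 38 and 11.2 FPKM for all 10011. The 38 spanned 3.64 to 68.9 FPKM, and 1 of them, *Chd4*, was among the highest 1000 genes. The 5 others were *Actl6b*, *Dpf3*, *Smarca1*, *Dpf1* and *Chd7*, each the paralog of a gene that was expressed.

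**Figure D1:**
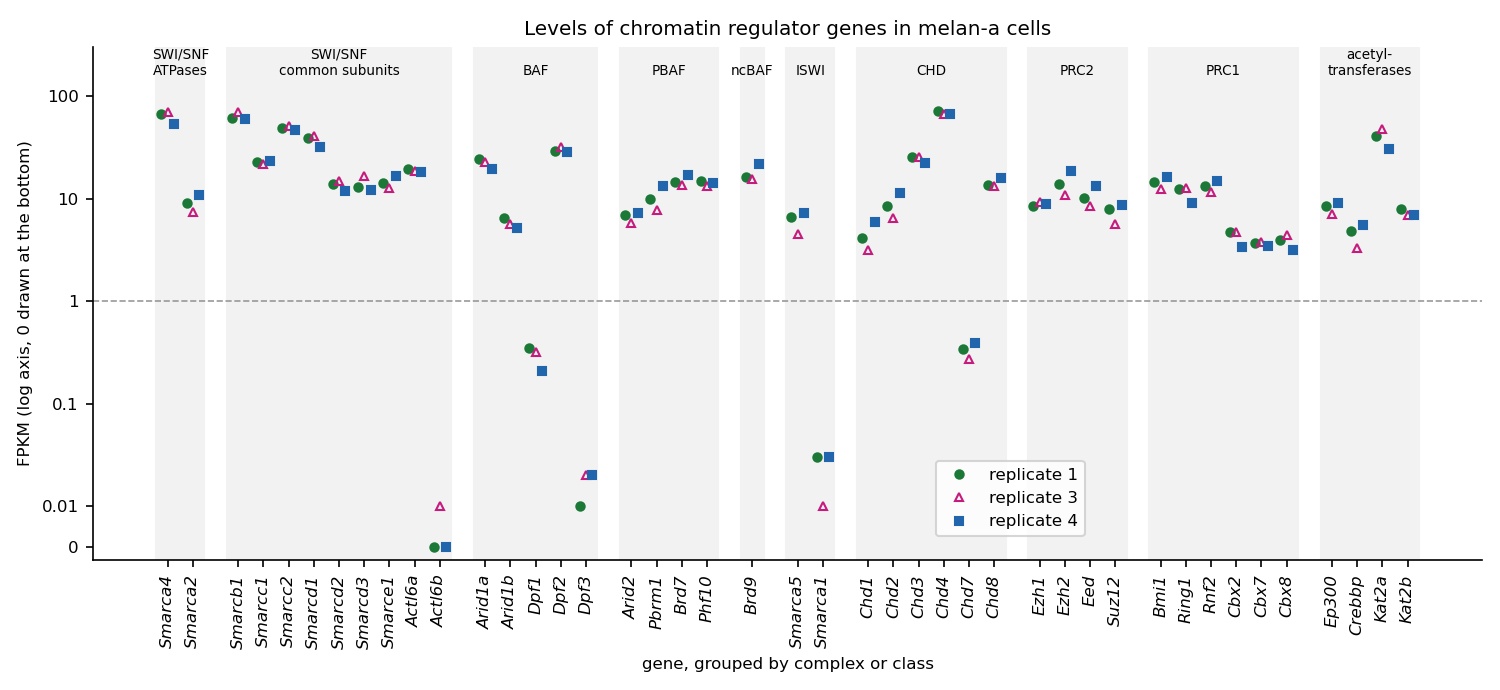
FPKM of the 43 genes in melan-a replicates 1 (green circles), 3 (open triangles) and 4 (blue squares) on a log axis, grouped by complex or class, with values of 0 drawn at the bottom and a dashed line at 1 FPKM. The genes above the line lie between 3.64 and 68.9 FPKM (means), and *Actl6b*, *Dpf1*, *Dpf3*, *Smarca1* and *Chd7* lie below it in every replicate.

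Among the sets of 2 genes, the steepest contrasts were those of *Smarca5* over *Smarca1* and of *Actl6a* over *Actl6b*, and their upstream sequences are shown for that reason. The sequences are the 250 bases before the RefSeq start, 5′ to 3′ on the strand of the gene, on GRCm38.p6, a later build than the mm9 used for the values, and were joined to the genes by symbol. Capitals mark CG dinucleotides, which read the same on both strands and which are dense in CpG island promoters. *Smarca5* lies at chr8:80739460-80739709 (minus strand), *Smarca1* at chrX:47892614-47892863 (minus), *Actl6a* at chr3:32708296-32708545 (plus) and *Actl6b* at chr5:137553296-137553545 (plus).
*Smarca5*: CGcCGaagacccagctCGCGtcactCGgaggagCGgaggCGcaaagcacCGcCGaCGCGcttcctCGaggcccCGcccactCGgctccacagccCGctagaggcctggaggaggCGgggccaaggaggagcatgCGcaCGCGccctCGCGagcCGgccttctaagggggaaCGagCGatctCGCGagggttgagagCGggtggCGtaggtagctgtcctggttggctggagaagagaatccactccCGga
*Smarca1*: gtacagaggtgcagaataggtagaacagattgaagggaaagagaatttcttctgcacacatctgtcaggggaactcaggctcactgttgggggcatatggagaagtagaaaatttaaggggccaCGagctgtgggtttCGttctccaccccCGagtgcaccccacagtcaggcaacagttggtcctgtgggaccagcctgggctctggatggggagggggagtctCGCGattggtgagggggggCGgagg
*Actl6a*: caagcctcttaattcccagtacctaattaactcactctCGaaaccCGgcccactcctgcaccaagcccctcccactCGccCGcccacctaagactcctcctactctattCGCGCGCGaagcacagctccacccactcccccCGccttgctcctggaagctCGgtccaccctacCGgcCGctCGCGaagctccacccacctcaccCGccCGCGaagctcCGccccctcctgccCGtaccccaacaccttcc
*Actl6b*: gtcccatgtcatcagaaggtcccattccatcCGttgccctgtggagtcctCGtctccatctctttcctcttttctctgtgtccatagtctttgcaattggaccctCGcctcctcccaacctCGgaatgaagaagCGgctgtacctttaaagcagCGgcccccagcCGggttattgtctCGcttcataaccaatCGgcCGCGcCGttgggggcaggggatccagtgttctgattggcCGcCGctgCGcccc

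The window of *Smarca5* held 29 CG and that of *Smarca1* held 6. The windows of *Actl6a* and *Actl6b* were less far apart, with 19 and 15 CG. A CG was present in 92.1% of all 32851 RefSeq windows of this length, with a median of 6, and 36 of the 40 windows of the list held more than that median. The 40 windows belong to 36 of the genes. The windows of genes at or above 1 FPKM in every replicate had a median of 16 CG and those of genes at 0 in every replicate a median of 2, against 23 for the expressed members of the list. Windows with many CG also lay before genes of the list with little RNA, such as *Dpf1* with 31 CG and *Dpf3* with 16, and *Smarcd2*, at 13.5 FPKM, had 4.

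*Smarca4* (ENSMUSG00000032187, chromosome 9 of mm9, 21420613 to 21508674, plus strand) had 66.37, 69.3 and 53.2 FPKM in replicates 1, 3 and 4, a mean of 63.0 ± 8.6 FPKM (SD, n = 3). *Smarca2* had 9.11, 7.41 and 10.81 FPKM, with a mean of 9.11 ± 1.7 (SD, n = 3). The BRG1 gene was thus higher than the BRM gene in 3 of 3 replicates, and their ranges did not overlap. It made up 87.1% ± 3.7 (SD, n = 3) of the summed level of the pair, or 7.29, 9.35 and 4.92 times *Smarca2* in replicates 1, 3 and 4. An exact sign-flip permutation test of 3 paired ratios cannot go below two-sided p = 0.25, so by that test no ratio of paralogs here can pass a threshold of 0.05, and the ratios are given as measured with their spread.

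Among the genes grouped here as common subunits of BAF and PBAF, *Smarcb1*, which encodes the core subunit SNF5, was the highest. It had 61.02, 70.36 and 59.05 FPKM in replicates 1, 3 and 4. *Smarce1*, the gene of the HMG-box subunit BAF57, was lower in each replicate, at 14.16, 12.56 and 16.76 FPKM. Both levels depend on the gene length, as given below.

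*Smarcc2* encodes the scaffold subunit BAF170 and *Smarcc1* its paralog BAF155. *Smarcc2* had 49.14, 50.74 and 46.23 FPKM and *Smarcc1* 22.85, 21.56 and 22.97, so that *Smarcc2* made up 68.4% ± 1.7 (SD, n = 3) of the pair. Both were steady, with coefficients of variation (SD over mean) of 4.7% and 3.5% between replicates. The 3 genes of the BAF60 subunit were all expressed. *Smarcd1* led in each replicate with 38.54, 40.85 and 31.82 FPKM, or 57.5% ± 1.2 of the summed level (SD, n = 3). *Smarcd2* (13.85, 14.85 and 11.92 FPKM) and *Smarcd3* (13.07, 16.53 and 12.03 FPKM) overlapped, and their order differed between replicates. *Smarcd3*, known from heart and muscle, is uncertain, since 54.3% of its exon bases are also covered by exons of *Chpf2* or *Mir671* on the other strand and the strand setting of the counting is not given in the sources used here.

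*Actl6a* (ENSMUSG00000027671, chromosome 3 of mm9, 32607468 to 32625890, plus strand) encodes the actin-related subunit BAF53A, which proliferating cells use. It had the lowest spread of the expressed genes, with 19.2, 18.5 and 17.98 FPKM and a coefficient of variation of 3.3%. *Actl6b* (ENSMUSG00000029712, chromosome 5, 137994745 to 138010810, plus strand), whose product BAF53B replaces it in neurons, was at 0 in replicates 1 and 4 and at 0.01 FPKM in replicate 3. The last value corresponds to 0.9 reads on its joined exons, so no expression was detectable at this depth. Of the exon bases of *Actl6a*, 16.2% are shared with *Mrpl47* on the other strand. The level of 3 reads on *Actl6b* was 0.029, 0.033 and 0.023 FPKM in replicates 1, 3 and 4. Set against it, *Actl6a* was at least 672-fold, 563-fold and 772-fold higher. This floor covers counting error only.

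The subunits that set BAF and PBAF apart were all expressed, apart from *Dpf1* and *Dpf3*. *Arid1a*, the gene of the DNA-binding BAF250A, had 24.36, 22.91 and 19.22 FPKM. Its paralog *Arid1b* had 6.39, 5.68 and 5.19 FPKM. *Arid1a* thus made up 79.4% ± 0.71 of the pair (SD, n = 3), and the ratio of 3.81, 4.03 and 3.7 varied little, and both genes were highest in replicate 1. *Arid2*, which takes the same place in PBAF, had 6.98, 5.83 and 7.18 FPKM and overlapped with *Arid1b*.

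*Dpf2* encodes BAF45D, a histone-reading subunit of BAF, and had 29, 31.84 and 28.72 FPKM. It made up 99.0% ± 0.22 of the summed level of the 3 *Dpf* genes (SD, n = 3). *Dpf1*, which is known from neurons, had 0.35, 0.32 and 0.21 FPKM, with 53.1 reads in replicate 3, so it was measurable but low. *Dpf3*, known from heart and muscle, had 0.01, 0.02 and 0.02 FPKM and lay below 3 reads in 1 replicate. *Actl6b*, *Dpf1* and *Dpf3* were thus each under 1 FPKM. *Ss18l1*, a neuronal subunit gene in the lists, had 1.95, 1.67 and 2.35 FPKM, beside 27.22, 22.02 and 32.97 for its paralog *Ss18*.

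Of the other PBAF genes, *Pbrm1*, the gene of the polybromo protein BAF180, had 9.96, 7.74 and 13.1 FPKM. *Brd7* had 14.64, 13.43 and 16.86 FPKM and *Phf10*, the PBAF counterpart of the *Dpf* genes, 14.81, 13.27 and 14.04, a value that is 3.06 times higher with the longest protein-coding transcript as length. *Brd9*, the bromodomain gene of the noncanonical ncBAF complex, had 16.18, 15.42 and 21.62 FPKM. It was above *Brd7* in 3 of 3 replicates, by 1.11, 1.15 and 1.28 times, but the ranges of the 2 genes overlapped. Of 7 further SWI/SNF genes, 6 were found and 6 of 6 were at or above 1 FPKM, from *Bcl7a* (mean 1.82 FPKM) to *Ss18* (27.4).

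**Figure D2:**
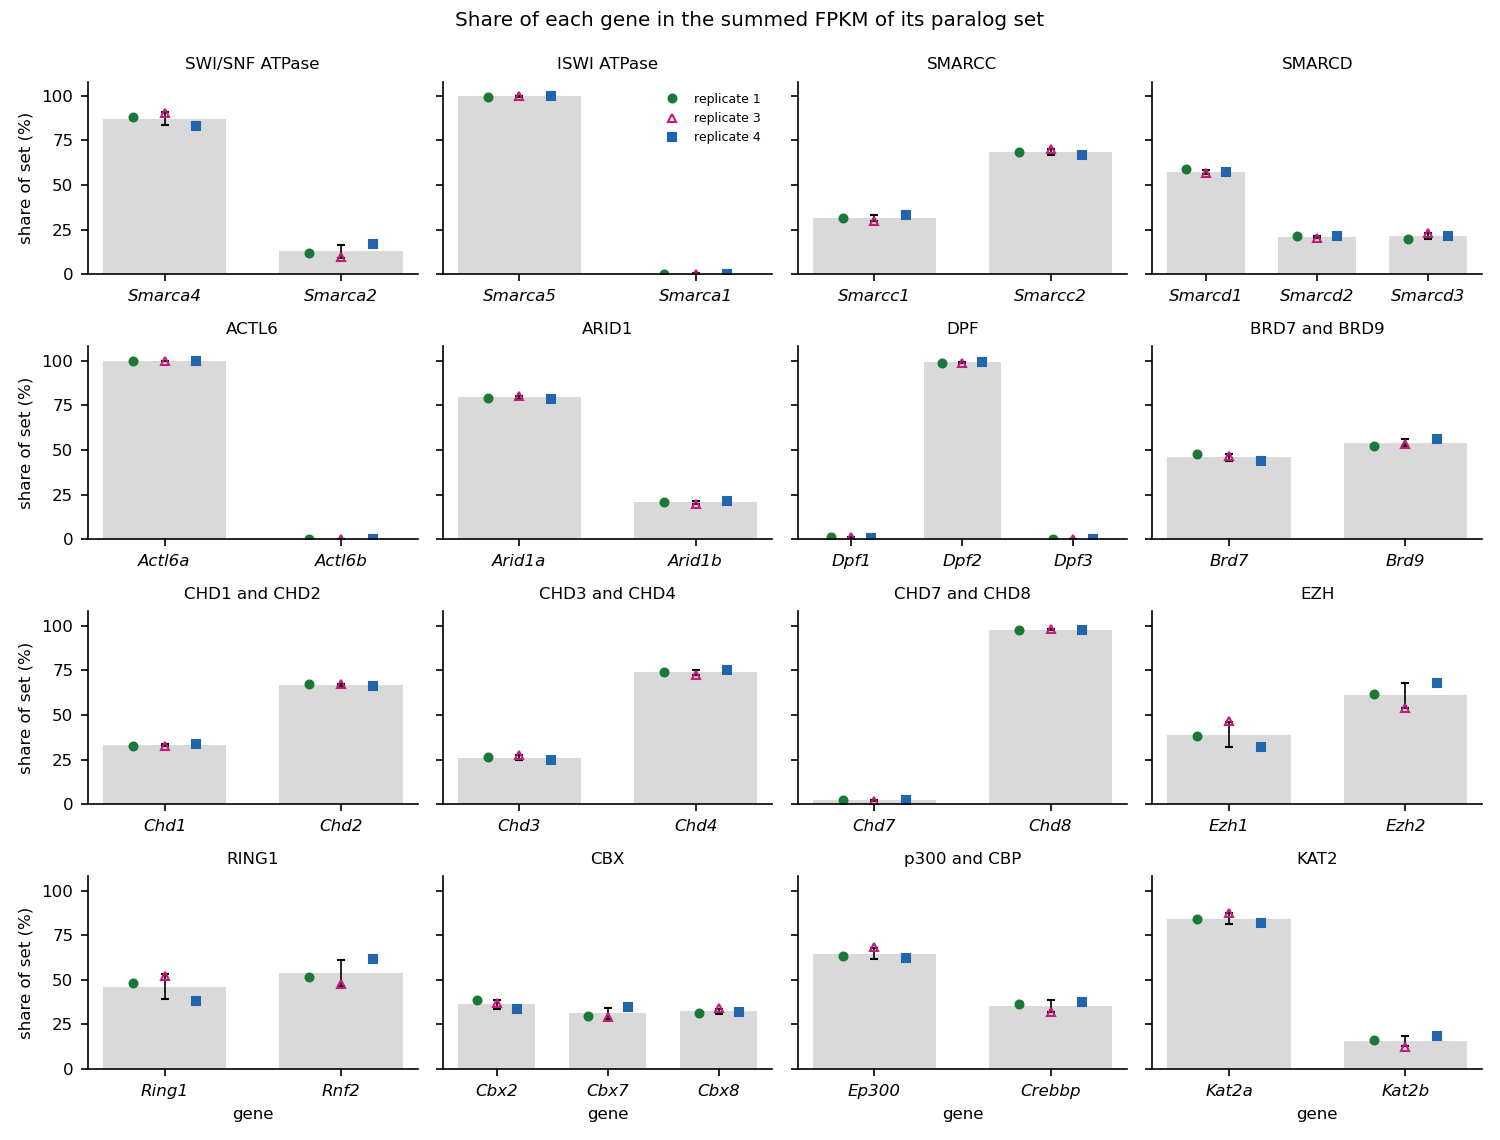
Share of each gene in the summed FPKM of its paralog set, in percent, for 16 sets, where bars are the mean of 3 replicates, error bars the SD and points replicates 1, 3 and 4. *Smarca5*, *Actl6a*, *Dpf2* and *Chd8* hold at least 97.7% of their sets, while the *Brd7* and *Brd9*, *Ring1* and *Rnf2* and *Cbx* sets are close to even.

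The ISWI family was represented by *Smarca5* alone at the level of 1 FPKM. *Smarca5* (ENSMUSG00000031715, chromosome 8 of mm9, 83222406 to 83263396, minus strand) encodes SNF2H, the ATPase of several spacing complexes, and had 6.58, 4.55 and 7.3 FPKM. *Smarca1* (ENSMUSG00000031099, chromosome X, 45162547 to 45246151, minus strand), whose product SNF2L is best known from brain, had 0.03, 0.01 and 0.03 FPKM. In replicate 3 its value stood for 2.9 reads. The ratio of *Smarca5* to *Smarca1* was about 219 in replicate 1 and 243 in replicate 4, and none is given for replicate 3. Since the values of *Smarca1* have 2 decimals, these ratios are coarse and their order is not resolved. Of the 7 ISWI partner genes in the lists, 7 were at or above 1 FPKM, from *Rsf1* (mean 2.47 FPKM) to *Pole3* (21.0).

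*Chd4* (ENSMUSG00000063870, chromosome 6 of mm9, 125045999 to 125080609, plus strand) had the highest mean of the 43 genes as deposited, with 72.1, 67.28 and 67.4 FPKM and a mean of 68.9 ± 2.7 (SD, n = 3). In replicate 3 *Smarcb1* (70.36) and *Smarca4* (69.3) were above it, and with the longest protein-coding transcript as length *Smarcb1* was (311 against 82.5 FPKM). CHD4 and CHD3 are alternative ATPases of the NuRD complex, which joins remodeling to histone deacetylation. *Chd3* had 25.6, 25.62 and 22.07 FPKM, so that *Chd4* made up 73.9% ± 1.5 of the pair (SD, n = 3). The missing paralog of this group, the neuronal *Chd5*, had 0.3, 0.23 and 0.19 FPKM. Of 15 further CHD and NuRD genes, *Chd5* was the exception and 14 were at or above 1 FPKM, with *Mbd3* highest (mean 47.4 FPKM).

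*Chd1* and *Chd2*, whose products bind active genes, were the most variable of the expressed genes, with coefficients of variation of 31.4% and 28.5%. *Chd1* had 4.12, 3.13 and 5.84 FPKM and *Chd2* 8.46, 6.45 and 11.43. Both were lowest in replicate 3 and highest in replicate 4, so their ratio was nearly constant, at 2.05, 2.06 and 1.96. *Chd8*, the gene of a regulator of beta-catenin targets, had 13.62, 13.24 and 15.72 FPKM. *Chd7*, which is needed in the neural crest and is mutated in CHARGE syndrome, had 0.34, 0.27 and 0.39 FPKM. With 174.9 reads even in the shallowest replicate, *Chd7* was well measured, and *Chd8* was 40.1, 49 and 40.3 times higher. The related genes *Chd6* and *Chd9*, which are not in the list of 43, had means of 7.35 and 3.96 FPKM.

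All 10 polycomb genes were at or above 1 FPKM. In PRC2, *Ezh2* (ENSMUSG00000029687, chromosome 6 of mm9, 47480273 to 47545340, minus strand), the methyltransferase gene of dividing cells, had 13.7, 10.75 and 18.69 FPKM. *Ezh1*, which persists in resting cells, had 8.54, 9.26 and 8.87 FPKM. *Ezh2* was higher in 3 of 3 replicates and the ranges did not overlap, but its share of the pair varied more than most, from 53.7% in replicate 3 to 67.8% in replicate 4 (mean 61.0% ± 7.1, SD, n = 3). *Eed*, which reads the methyl mark, and *Suz12*, which holds the complex together, had 10.22, 8.46 and 13.16 FPKM and 7.96, 5.6 and 8.68 FPKM. Both were lowest in replicate 3 and highest in replicate 4, as was *Ezh2*. Of the 5 accessory PRC2 genes in the lists, 5 were at or above 1 FPKM, from *Jarid2* (mean 2.83 FPKM) to *Phf1* (11.1).

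In PRC1, *Ring1* and *Rnf2* encode the alternative ubiquitin ligases RING1A and RING1B. *Ring1* had 12.46, 12.65 and 9.06 FPKM and *Rnf2* 13.32, 11.63 and 14.67. *Rnf2* was higher in 2 of 3 replicates and *Ring1* in replicate 3, so neither led. *Bmi1*, which stimulates this ligase and represses the Ink4a-ARF locus in many cells, had 14.5, 12.29 and 16.3 FPKM. Its paralog *Pcgf2*, not in the list of 43, had 17.1, 17.87 and 18.07 FPKM.

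The *Cbx* genes encode the chromodomain subunits that bind methylated histone H3. The 3 of them in the list had the lowest means of the 38 expressed genes, with 4.76, 4.75 and 3.35 FPKM for *Cbx2*, 3.71, 3.75 and 3.45 for *Cbx7*, and 3.9, 4.37 and 3.15 for *Cbx8*. Their ranges overlapped, and *Cbx2* was highest in replicates 1 and 3 and *Cbx7* in replicate 4. Their paralog *Cbx6*, outside the list, was higher than these in each replicate, with 14.49, 15.34 and 10.23 FPKM. Of 13 further PRC1 genes, 12 were at or above 1 FPKM in every replicate, with *Phc2* highest (mean 66.6 FPKM) and *Pcgf6* lowest (1.01).

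*Ep300* (ENSMUSG00000055024, chromosome 15 of mm9, 81415781 to 81482507, plus strand), the p300 gene, had 8.37, 7.14 and 9.14 FPKM, and *Crebbp*, the CBP gene, 4.86, 3.31 and 5.51. *Ep300* was higher in 3 of 3 replicates without overlap, and made up 64.7% ± 3.2 of the pair (SD, n = 3). Binding of p300 is commonly used to map enhancers, and in these libraries its gene was below the median of the 38 expressed genes. The GCN5 gene *Kat2a* was far higher, with 41.09, 47.81 and 30.35 FPKM, and made up 84.3% ± 3.0 of its pair with the PCAF gene *Kat2b* (7.91, 6.84 and 6.84 FPKM). GCN5 and PCAF work in the SAGA and ATAC complexes. Of 13 further genes listed for SAGA and PCAF, and not for ATAC as such, 13 were at or above 1 FPKM. They ranged from *Tada2a* (mean 5.06 FPKM) to *Usp22* (25.8).

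The same gene was highest in every replicate in 16 of 18 sets compared, and the exceptions were the *Ring1* and *Cbx* sets. The 18 sets comprise the 16 plotted and the sets in which *Arid2* was added to *Arid1a* and *Arid1b* and *Phf10* to the *Dpf* genes. They too were chosen with earlier results of these data known. Levels summed over the paralogs at a position of the SWI/SNF complex were 72.1 ± 7.0 FPKM for the ATPases, 71.2 ± 1.7 for *Smarcc* and 64.5 ± 8.3 for *Smarcd*, beside 63.5 ± 6.0 for *Smarcb1*. They were 44.2 ± 1.2 for *Dpf* with *Phf10*, 34.6 ± 3.1 for *Arid1* with *Arid2* and 18.6 ± 0.61 for *Actl6* (all SD, n = 3). The order of these sums depends on the gene length. With the longest protein-coding transcript as length, an alternative chosen for the sums after the data were seen, the sum was 102 FPKM for *Dpf* with *Phf10*, above the 91.1 for *Smarcd*, 75.5 for *Smarcc* and 73.8 for the ATPases, and *Smarcb1* had 311. RNA levels do not give the amounts of protein.

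The median coefficient of variation of the 38 expressed genes was 12.5%, against 11.4% for all genes at or above 1 FPKM in every replicate, and ranged from 3.3% to 31.4%. It was 17.5% without replicate 1 and 8.2% without replicate 4. The differences between replicates moved with the GC content of the transcripts. Of the 38 genes, 17 were higher in replicate 3 than in replicate 4, 20 were lower, and *Kat2b* had the same value in both. The 17 had a median GC content of 55.6% (47.4% to 59.4%) and the 20 of 45.6% (39.1% to 53.6%). Over the 38 genes, whose values share the same libraries, the log2 ratio of the replicates followed GC content with a Spearman's rho of 0.76 and a Pearson's r of 0.75, beside a rho of 0.78 over all 10007 such genes with a GC value. The members of some pairs differ in GC content, and whether this shaped their shares was not tested. *Ring1* has 57.8% GC and *Rnf2* 39.1%, *Ezh1* has 49.3% and *Ezh2* 44.2%, and *Chd1* has 42.3% and *Chd2* 47.7%. After a straight line in GC content was removed from each replicate, the share of *Rnf2* was 52.2%, 56.8% and 52.6% in replicates 1, 3 and 4, above *Ring1* in each, and the share of *Ezh2* 61.7%, 56.1% and 65.6%. That of *Kat2a* came to 83.7%, 84.9% and 84.8%, with the SD down from 3.0 to 0.68 percentage points. The correction hardly moves the mean of a gene over the replicates, because the line was fitted to deviations from that mean. The mean share of *Rnf2* was 53.8% as deposited and 53.9% after it. The place of *Rnf2* above *Ring1* in each replicate is therefore not evidence that it leads. A GC effect common to all replicates would remain. Over the 18 sets the SD of the share of the leading gene was smaller after this correction in 11 and larger in 7. It grew from 3.2 to 4.9 for *Ep300*, from 1.9 to 3.8 for *Brd9* and from 0.64 to 1.9 for *Chd2*.

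**Figure D3:**
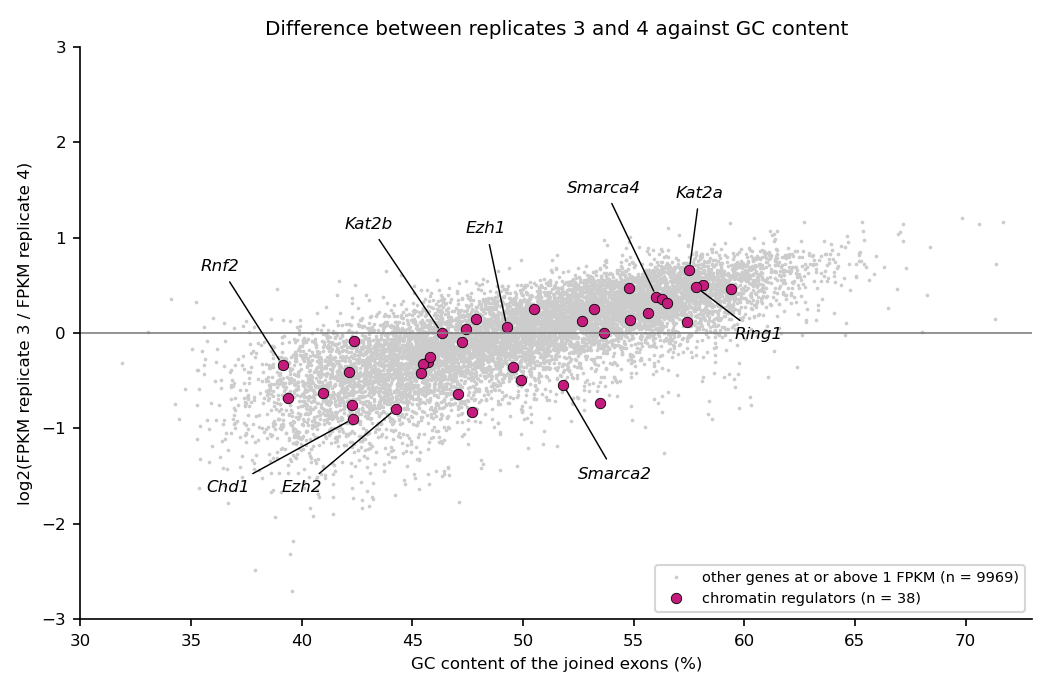
Log2 ratio of FPKM in replicate 3 to replicate 4 against the GC content of the joined exons in percent, for the 38 expressed chromatin regulators (magenta) and the other genes at or above 1 FPKM in every replicate (gray). The magenta points rise with GC content (Spearman's rho 0.76), as do all such genes together (0.78). *Rnf2*, *Ezh2* and *Chd1* lie below 0 and *Ring1*, *Smarca4* and *Kat2a* above 0.

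The length by which the authors divided is not given in the sources used here, and 40 of the 43 genes have more than 1 annotated transcript. For short genes with few reads, FPKM turned into whole reads only with the right length. The joined exons of all transcripts left a mean distance of 0.046 reads from a whole number in 6 testable values of genes with several transcripts, against 0.221 in 19 values with the longest transcript. If the joined exons were used, dividing by the longest protein-coding transcript raises the values of 5 genes more than 2 times, with *Phf10* at a factor of 3.06. *Smarcb1* would rise from 63.5 to 311 FPKM, *Smarcd3* from 13.9 to 36.4, *Ezh2* from 14.4 to 33.6 and *Smarce1* from 14.5 to 33.0. The order of *Brd9* and *Brd7* and the order of the means of *Rnf2* and *Ring1* would then turn, with shares of 44.8% for *Brd9* and 42.4% for *Rnf2*. *Smarcd3* would come close to *Smarcd1*, at 39.8% against 40.7% of their set. *Smarcd3* would lead it in replicate 3, with 41.8%. By mean share, no other set had another leading gene with this length.

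**Figure D4:**
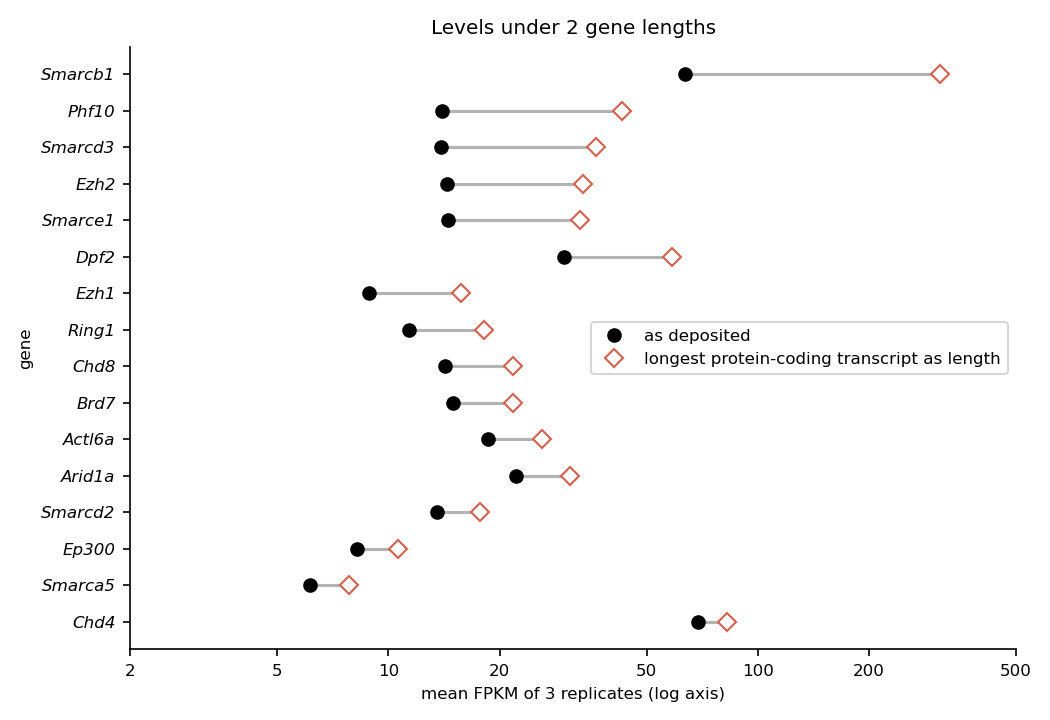
Mean FPKM of 3 replicates on a log axis for the 16 expressed genes whose level depends most on the gene length, as deposited (black) and after division by the longest protein-coding transcript in place of the joined exons (open diamonds). *Smarcb1* moves from 63.5 to 311 FPKM, and *Chd4*, at the bottom, from 68.9 to 82.5.

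By position in mm9, the 43 genes lie on 19 chromosomes, with 8 on chromosome 11 (18.6%, against 7.4% of all annotated genes). *Cbx2* (118884276 to 118892584, plus strand) and *Cbx8* (118897619 to 118902283, minus strand) are neighbours there, and their levels were 4.29 ± 0.81 and 3.81 ± 0.62 FPKM (SD, n = 3).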

How the data were processed

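Stranded mRNA libraries of 3 melan-a replicates were sequenced on 3 lanes each. According to the methods of the study, the authors trimmed the reads, aligned them to mm9 with STAR (2.3.0e), removed rRNA reads and counted on Ensembl release 67 with htseq-count (0.5.3p3). The submitters' processing notes also name edgeR. The deposited values are FPKM after TMM scaling by the authors, with 2 decimals.

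Symbols, positions, lengths and GC content came from GENCODE on NCBIM37 (mm9, Ensembl 65), where 22324 of the 22698 genes were matched. Library sizes were the values at which genes with 1 transcript gave whole reads (135, 152 and 81 genes in replicates 1, 3 and 4, mean distance from a whole number 0.051, 0.054 and 0.062 reads), and 3 reads were taken as the floor. The level of 1 FPKM in every replicate is used as expressed. A share is the FPKM of a gene over the sum of its set in the same library, with no pseudocount. For the GC alternative, the deviation of log2(FPKM + 0.1) from the mean of the replicates was fitted with a straight line per replicate. The members, lists and sets were chosen with earlier results of these data known. Every member is named, and of the other genes of the complexes the highest and lowest of a list and the paralogs missing from a set are. Of these other genes, *Bicral* was not matched, and 4 were found under an older symbol in RefSeq. Count tests were not used, since the files hold FPKM. Steps were tested on simulated data. Python 3.11.15, numpy 2.4.6, pandas 2.3.3, scipy 1.17.1 and matplotlib 3.10.9 were used.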

Additional observations from a re-analysis of the deposited data

How the results depend on the processing

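Samples could not be paired between groups because there is 1 group, and the ratios of paralogs were paired within each library. The number of genes at or above the expressed level was 38 under each alternative, and 15 to 17 sets had the same leading gene in every replicate, beside 16 as reported. The median level was 12.5 FPKM with the median of the replicates, 30.1 after rescaling each replicate to a sum of 1000000, 13.7 without the 5 low genes, and 10.9 to 12.2 with a replicate left out. The median coefficient of variation was 8.2% to 17.5% with a replicate left out. Of protein-coding genes, 44.8% were at or above 1 FPKM in every replicate.

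Shares moved beyond the SD of the replicates mainly with the pseudocount in sets with a gene near 0 and with the gene length, both by their construction. With 0.1 and 1 FPKM added, the share was 98.0% and 87.2% for *Smarca5*, 99.4% and 95.1% for *Actl6a*, 98.3% and 93.0% for *Dpf2* and 97.1% and 91.9% for *Chd8*. With 1 FPKM added it was 77.4% for *Arid1a*, 64.0% for *Dpf2* with *Phf10* and 64.6% for *Chd2*. With the longest protein-coding transcript as length it was 65.7% for *Smarcc2*, 40.7% for *Smarcd1*, 82.9% for *Arid1a* (70.0% with *Arid2*), 99.2% for *Dpf2* (57.4% with *Phf10*), 66.0% for *Chd2*, 98.0% for *Chd8* and 70.1% for *Ep300*, and the order turned for *Brd9* (44.8%) and *Rnf2* (42.4%). With a replicate left out *Rnf2* had 49.8% to 56.7%, and it was below *Ring1* without replicate 4. The depth limits *Actl6b*, which was under 3 reads in every replicate.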
